A study of Homo sapiens with 9 samples.

Results

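Lysine acetyltransferases move the acetyl group of acetyl-CoA onto lysine side chains of histones and of other proteins, among them p53. The 10 of their genes described here were chosen by symbol: the paralogues EP300 and CREBBP, which encode p300 and CBP; KAT2A and KAT2B, which encode GCN5 and PCAF; the MYST family members KAT5, KAT6A, KAT6B, KAT7 and KAT8; and the coactivator gene NCOA3. These 10 genes belong to 56865 genes summed from the deposited transcript tables, and all 10 were among the 13914 genes that passed the filter on low counts. p300 and CBP are large coactivators that bind many transcription factors and acetylate histone H3 at enhancers as well as the C-terminal part of p53. KAT2A and KAT2B work inside the SAGA and ATAC complexes. The MYST enzymes also work inside complexes, and KAT5 and KAT8 are known to acetylate p53 within its DNA-binding domain.

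The 9 libraries were made from poly(A)-selected RNA of cells labelled as the human pancreatic adenocarcinoma line BxPC3, whose genotype is given as p53Y220C/- and is shared by all groups. Each group held 3 libraries, treated with vehicle (DMSO), MS172 or PK9328. The treatment protocol gives 5 µM for 6 h but names PK9328 and MS78, whereas titles and treatment labels name MS172, so the dose and time of MS172 come from a protocol that uses another compound name. In the literature PK9328 binds mutant p53, and MS78 is a compound that brings p300/CBP to that protein. The labels do not say that replicates were separate cultures, so the p-values measure the spread between these libraries, which may be technical.

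Library totals lay between 24077353 and 28031886 estimated reads, and the members were covered by 149 reads (KAT2B, MS172 replicate 1) to 2276 reads (NCOA3, PK9328 replicate 2) in a library. Estimated mean fragment length was 281.2 to 289.1 bases with DMSO, 274.1 to 292.8 with MS172 and 249.5 to 263.0 with PK9328, so the PK9328 libraries stood apart from both other groups. Among the 15 markers of ductal and epithelial cells, 7 did not reach 1 CPM in any library, while KRT18 averaged 785 CPM with DMSO. EPCAM, CDH1 and KRT7, which mark such epithelia, averaged 0.025, 0 and 0.053 CPM with DMSO, whereas the mesenchymal genes VIM and COL1A2 averaged 9391 and 2416 CPM. The levels of EPCAM, CDH1, KRT7, VIM and COL1A2 go against the labelled epithelial line, while 8 of the 15 epithelial markers passed the filter on low counts. The markers are thus mixed, and the identity of the cells and their genotype are given only as labelled. The summed level of the epithelial list was 2167 to 2336 CPM with DMSO, 2631 to 2795 with MS172 and 2020 to 2101 with PK9328. Of 12 mesenchymal markers, 6 lay under 1 CPM everywhere, and the list summed to 11796 to 11975, 12419 to 12937 and 9999 to 10254 CPM in the same order of groups. All 7 acinar and endocrine markers were at 0, all 4 endothelial markers lay under 1 CPM, and so did 3 of 5 leukocyte markers, whose list summed to 18.8 to 24.8 CPM. The part of these shifts in the results below was not tested.

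With MS172, KAT2B, KAT5, KAT7 and NCOA3 fell, to between 0.771 and 0.901 of their DMSO level, and the other 6 members were not called. With PK9328, CREBBP rose 1.14-fold and the other 9 members were not called. A gene is said to have risen or fallen where edgeR's quasi-likelihood test gave a Benjamini-Hochberg adjusted p under 0.05 over all genes tested. The 4 of 10 members called with MS172 stand beside 35.1% of all genes tested, and the 1 of 10 called with PK9328 beside 15.5%, so the share of members called was close to that of genes at large in both comparisons. All 4 calls with MS172 were falls, while 17.2% of all genes fell and 17.9% rose, and with PK9328 7.98% of all genes rose and 7.48% fell. At an unadjusted p under 0.05, 1 member was higher and 4 were lower with MS172, DESeq2 called 1 higher and 3 lower, and limma-voom called 4 lower. The CPM of 4 members did not overlap between MS172 and DMSO, beside 44.7% of all genes tested, and that of 3 members (CREBBP, KAT7 and KAT8) did not overlap between PK9328 and DMSO, beside 31.3%. With PK9328, 1 member was higher and 1 lower at an unadjusted p under 0.05, and DESeq2 and limma-voom each called 1 higher. The median log2 fold change of the members was -0.08 with MS172 and 0.07 with PK9328, against -0.02 and 0.00 over all genes tested. These medians moved with single libraries: with MS172 to -0.039 without DMSO replicate 2, -0.12 without DMSO replicate 3 and -0.038 without MS172 replicate 2, and with PK9328 to 0.017 without DMSO replicate 3. In such bulk libraries, fewer cells that express a gene and less of its RNA per cell cannot be told apart.

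**Figure D1:**
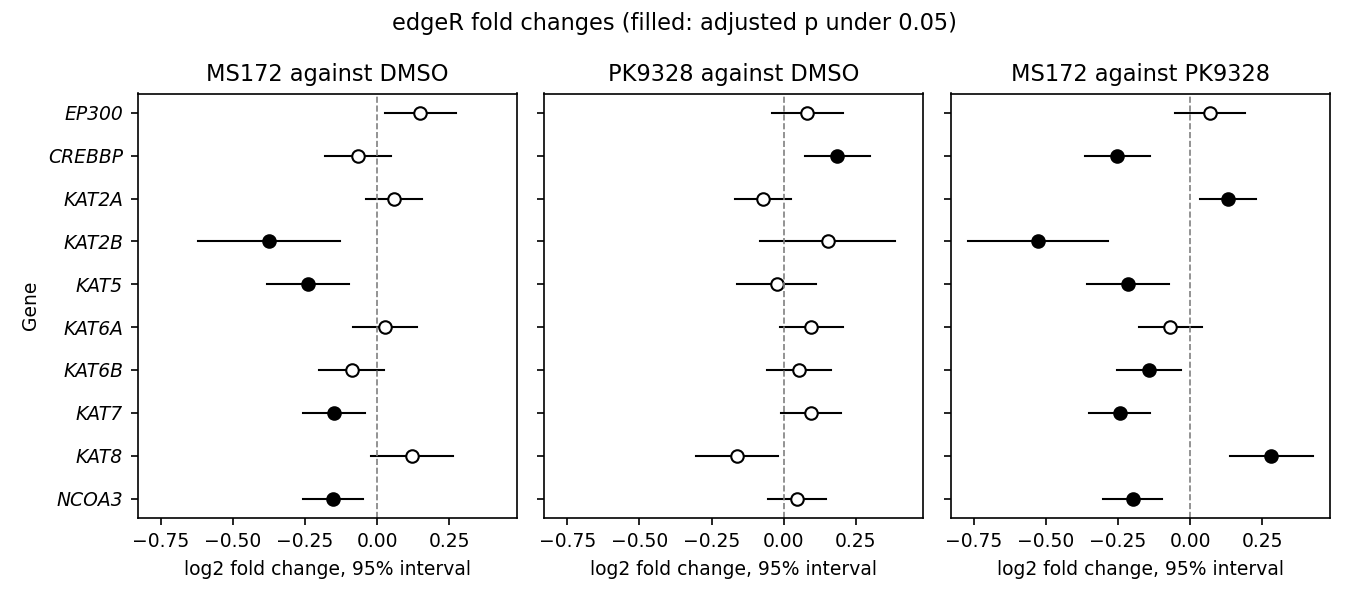
Log2 fold change of the 10 acetyltransferase genes (horizontal axis) in the 3 comparisons, with 95% intervals from edgeR; filled points have an adjusted p under 0.05. The filled points are 4 falls with MS172, 1 rise with PK9328, and 6 falls and 2 rises for MS172 against PK9328.

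Levels can be set between genes only per transcript length, as TPM (transcripts in every 1000000). KAT2A had the highest level with DMSO, 28.8 ± 1.92 TPM (SD, n = 3), and KAT2B the lowest, 2.42 ± 0.50 TPM, an 11.9-fold range. Between them came KAT8 (22.6 ± 1.24 TPM), KAT7 (20.5 ± 1.22 TPM), KAT5 (17.6 ± 1.03 TPM) and NCOA3 (11.9 ± 1.27 TPM). EP300 followed at 7.94 ± 1.03 TPM, KAT6B at 6.98 ± 0.70 TPM, CREBBP at 5.76 ± 0.65 TPM and KAT6A at 5.55 ± 0.56 TPM. Neighbours whose DMSO libraries overlapped were KAT8 and KAT7, EP300 and KAT6B, and CREBBP and KAT6A, so their order is not set by these data. Genes that overlap members other than KAT5 stood lower than the members, namely FAM117A with KAT7 (3.70 TPM over all libraries), AC135050.6 with KAT8 (2.22 TPM), SULF2 with NCOA3 (1.14 TPM) and EP300-AS1 with EP300 (0.842 TPM). The 2 large coactivators were therefore in the lower part of the order, and the smaller MYST enzymes KAT5, KAT7 and KAT8 in the upper part.

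**Figure D2:**
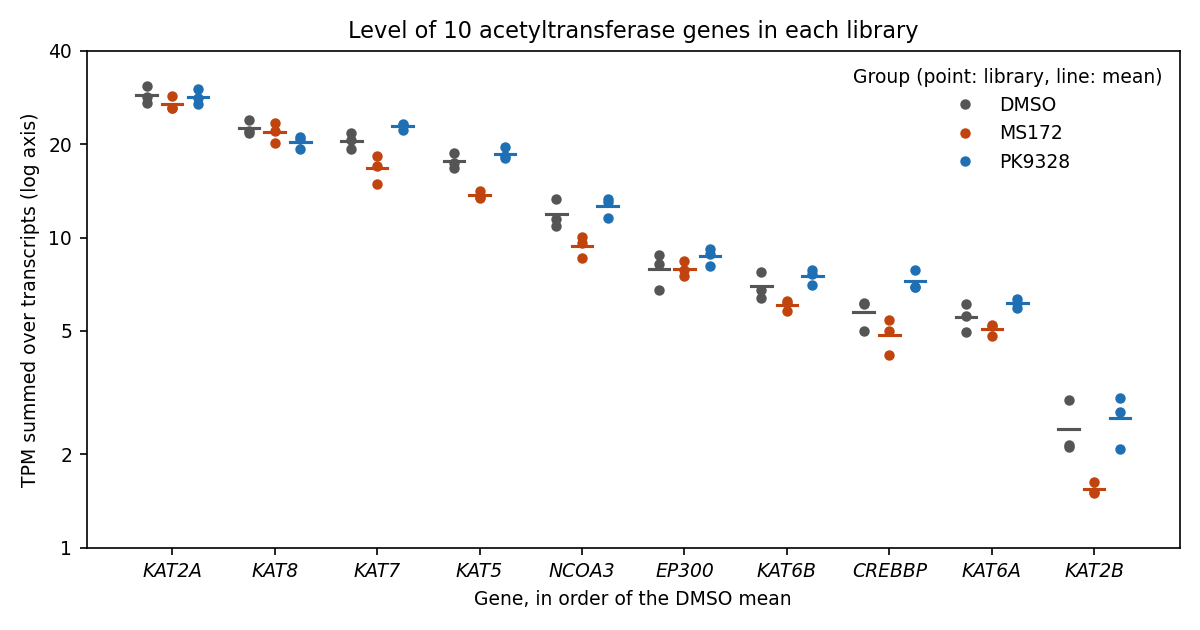
TPM of each acetyltransferase gene on a log axis, with a point for each library and a line for the mean of 3. Genes run in order of the DMSO mean, from KAT2A at 28.8 TPM to KAT2B at 2.42 TPM.

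EP300 (chromosome 22, 41091786 to 41180079, plus strand, GRCh38) and CREBBP (chromosome 16, 3725054 to 3880726, minus strand) encode the enzymes most often named together. EP300 stood at 65.1, 66.8 and 55.2 CPM (counts per 1000000 reads of the TMM-scaled library size) in the DMSO libraries, 68.8, 66.8 and 72.2 CPM with MS172, and 66.8, 68.8 and 62.7 CPM with PK9328. DMSO replicate 3 was the lowest of the 9 libraries, and each treated group overlapped the DMSO group. EP300 was 62.4 ± 6.24 CPM with DMSO and 69.2 ± 2.75 CPM with MS172, and with a log2 fold change of 0.15 it missed the threshold (edgeR adjusted p = 0.054; 95% interval 0.03 to 0.27). That value lay close to the threshold: EP300 was called higher under 8 of 20 alternatives, with log2 fold changes of 0.04 to 0.21 and adjusted p from 0.000373 to 0.669 over all 20. Among the 8 were the fits without DMSO replicate 2 (0.20) and without PK9328 replicate 3 (0.15). With PK9328 the log2 fold change was 0.08 (95% interval -0.04 to 0.20, adjusted p = 0.40).

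CREBBP stood at 45.0, 45.7 and 41.3 CPM with DMSO, 43.4, 39.6 and 43.0 CPM with MS172, and 48.6, 53.4 and 48.1 CPM with PK9328. The 3 PK9328 libraries lay above all others. CREBBP rose with PK9328 from 44.0 ± 2.32 to 50.04 ± 2.95 CPM, or 0.19 ± 0.05 on the log2 scale (mean ± SE; adjusted p = 0.018 by edgeR). The call was lost without DMSO replicate 3 (0.14), without PK9328 replicate 2 (0.14), with counts rebuilt from length-scaled TPM (0.28) and with fragment length as a covariate (0.22). Adjusted p over the 20 alternatives ran from 0.00021 to 0.434. Fragment lengths with PK9328 did not overlap those of the other groups, so the covariate and PK9328 treatment cannot be fully told apart. With MS172 the log2 fold change of CREBBP against DMSO was -0.07 (95% interval -0.18 to 0.05, edgeR adjusted p = 0.38). CREBBP was called lower with MS172 (-0.17) only when library totals were used without normalisation factors, which shifted the median of all genes to -0.13.

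Because both genes were read in the same library, their ratio does not depend on the scaling of that library. EP300 TPM divided by CREBBP TPM was 1.33, 1.44 and 1.36 with DMSO, 1.57, 1.80 and 1.54 with MS172, and 1.28, 1.17 and 1.17 with PK9328. The 3 groups did not overlap, with MS172 highest and PK9328 lowest. The mean ratio was 1.38 ± 0.06 with DMSO, 1.64 ± 0.14 with MS172 and 1.21 ± 0.06 with PK9328 (SD, n = 3). Each of the 3 comparisons gave p = 0.1 in a two-sided exact permutation test, the smallest that 3 against 3 libraries can give, and 0.15 after adjustment over the 9 ratios compared. From CPM in place of TPM, MS172 remained above DMSO by 1.17-fold without overlap, whereas the PK9328 and DMSO libraries overlapped (0.934-fold, exact p = 0.2).

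**Figure D3:**
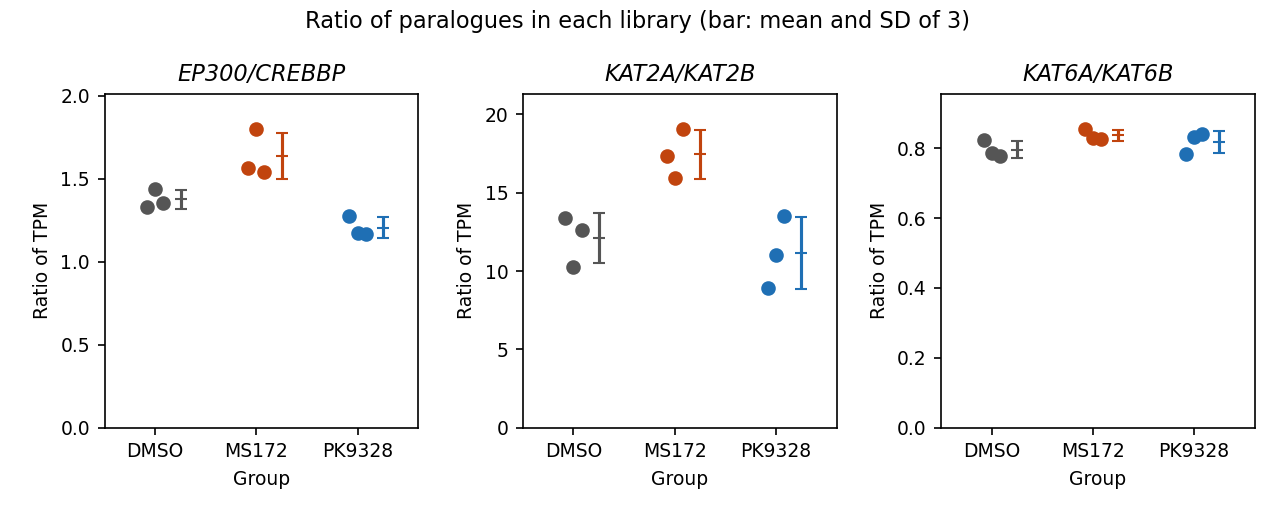
Ratio of TPM of 3 paralogue pairs in each library, with a point for each library and a bar for the mean and SD of 3. EP300/CREBBP separates the 3 groups, KAT2A/KAT2B is 15.95 to 19.0 in the MS172 libraries and at most 13.5 in all others, and KAT6A/KAT6B lies between 0.778 and 0.854.

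KAT2A (chromosome 17, 42113108 to 42121358, minus strand) and KAT2B (chromosome 3, 20040023 to 20154404, plus strand) are the interchangeable catalytic subunits of SAGA and ATAC, which acetylate histone H3 at promoters. KAT2B was read at 7.79, 8.95 and 8.52 CPM with DMSO and at 6.08, 7.10 and 6.34 CPM with MS172. All 3 MS172 libraries lay below all DMSO libraries. It fell by 0.37 on the log2 scale with MS172 (SE 0.12, edgeR adjusted p = 0.016), the largest change of a member against DMSO. The fall was no longer called without DMSO replicate 2 (-0.33), MS172 replicate 1 (-0.33) or MS172 replicate 3 (-0.36), with adjusted p from 0.00299 to 0.0749 over 20 alternatives. With PK9328 KAT2B spread from 7.56 to 10.5 CPM around the DMSO libraries, or 0.15 on the log2 scale (95% interval -0.08 to 0.39, adjusted p = 0.42).

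KAT2A stood at 67.7, 70.4 and 66.3 CPM with DMSO, 69.0, 70.2 and 73.7 CPM with MS172, and 61.2, 68.1 and 65.0 CPM with PK9328. Both treated groups overlapped DMSO, with log2 fold changes of 0.06 (95% interval -0.04 to 0.16, adjusted p = 0.36) for MS172 and -0.07 (-0.17 to 0.02, adjusted p = 0.33) for PK9328. The sign for MS172 turned to -0.05 when library totals were used without normalisation factors. The ratio of KAT2A to KAT2B in TPM was 13.4, 10.3 and 12.6 with DMSO, 17.3, 15.95 and 19.0 with MS172, and 8.91, 11.0 and 13.5 with PK9328. Its mean was 1.45-fold higher with MS172 than with DMSO, without overlap (two-sided exact permutation p = 0.1, adjusted 0.15), and PK9328 overlapped DMSO (0.913-fold, exact p = 0.7). In DMSO replicate 2, the retained-intron transcript KAT2B-204 held 21.5% of KAT2B TPM from 6 reads. From CPM in place of TPM, the ratio with MS172 was 1.35-fold that with DMSO, again without overlap.

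Among the MYST enzymes, KAT5 (chromosome 11, 65711996 to 65719604, plus strand) encodes TIP60, the catalytic subunit of the TIP60/NuA4 complex, which acetylates histones H4 and H2A and the kinase ATM. KAT5 was read at 25.5, 21.9 and 24.7 CPM with DMSO and at 21.0, 19.97 and 19.98 CPM with MS172. The MS172 libraries lay close together and below every DMSO library, of which replicate 2 was the nearest. KAT5 fell by 0.24 on the log2 scale (SE 0.07, edgeR adjusted p = 0.008), and the call was lost without DMSO replicate 1 (-0.19) and with length-scaled TPM (-0.21), with adjusted p from 0.000276 to 0.0738 over 20 alternatives. With PK9328 it stood at 24.6, 22.1 and 24.1 CPM, among the DMSO libraries (log2 fold change -0.02, 95% interval -0.16 to 0.11, adjusted p = 0.86). The gene RNASEH2C overlaps KAT5 on the opposite strand at a mean of 48.1 TPM, against 16.7 TPM for KAT5, and whether reads were assigned by strand is not given in the sources used here, so the KAT5 values are uncertain.

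KAT7 (chromosome 17, 49788555 to 49835030, plus strand) encodes HBO1, which acetylates histones H3 and H4 and takes part in the licensing of replication origins. It was read at 58.2, 56.8 and 56.5 CPM with DMSO, 47.3, 56.2 and 51.1 CPM with MS172, and 61.5, 62.0 and 59.5 CPM with PK9328. The 3 groups did not overlap, with MS172 replicate 2 just below the lowest DMSO library. KAT7 fell with MS172 by 0.15 on the log2 scale (SE 0.05, edgeR adjusted p = 0.026). This call was lost under 6 of 20 alternatives: DESeq2 (-0.14), length-scaled TPM (-0.13), the length and GC offset (-0.08), and the fits without DMSO replicate 1 (-0.14), MS172 replicate 1 (-0.09) or MS172 replicate 3 (-0.14). Adjusted p over all 20 ran from 0.000468 to 0.228. With PK9328 the log2 fold change was 0.09 (95% interval -0.01 to 0.20, adjusted p = 0.23).

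KAT8 (chromosome 16, 31115754 to 31131393, plus strand) encodes MOF, the histone H4 acetyltransferase of the MSL and NSL complexes. It was read at 22.6, 23.8 and 23.6 CPM with DMSO, 27.3, 26.0 and 22.9 CPM with MS172, and 21.3, 19.5 and 22.0 CPM with PK9328. MS172 replicates 1 and 2 were the highest libraries and replicate 3 lay within the DMSO range, while all PK9328 libraries lay below all DMSO libraries. Neither change passed the test: the log2 fold change was 0.12 with MS172 (95% interval -0.02 to 0.26, adjusted p = 0.19) and -0.16 with PK9328 (-0.30 to -0.02, adjusted p = 0.12). Without MS172 replicate 3, KAT8 was called higher with MS172 (0.19), the only alternative of 20 that called it.

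KAT6A (chromosome 8, 41929479 to 42052026, minus strand) and KAT6B (chromosome 10, 74824927 to 75032624, plus strand) encode MOZ and MORF, paralogous histone H3 acetyltransferases that work with BRPF scaffold proteins. KAT6A was read at 42.3, 43.7 and 38.5 CPM with DMSO, 43.9, 40.7 and 42.5 CPM with MS172, and 44.5, 45.1 and 43.7 CPM with PK9328. KAT6B was read at 42.2, 45.2 and 39.9 CPM with DMSO, 40.9, 37.7 and 41.2 CPM with MS172, and 45.4, 44.2 and 42.7 CPM with PK9328. In both genes each treated group overlapped DMSO. The log2 fold changes with MS172 were 0.03 for KAT6A (95% interval -0.08 to 0.14, adjusted p = 0.74) and -0.09 for KAT6B (-0.20 to 0.02, adjusted p = 0.22). With PK9328 they were 0.10 (-0.01 to 0.20, adjusted p = 0.24) and 0.05 (-0.06 to 0.16, adjusted p = 0.57). Without normalisation factors KAT6B was called lower with MS172 (-0.20). The sign of KAT6A with MS172 turned without DMSO replicate 3 (-0.02) and without normalisation factors (-0.08). The ratio of KAT6A to KAT6B in TPM was 0.80 ± 0.02 with DMSO, 0.84 ± 0.02 with MS172 and 0.82 ± 0.03 with PK9328, and only the first pair of groups did not overlap (two-sided exact permutation p = 0.1, adjusted 0.15). From CPM in place of TPM, MS172 lay above both DMSO (1.08-fold) and PK9328 (1.05-fold) without overlap.

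NCOA3 (chromosome 20, 47501902 to 47656877, plus strand) encodes a coactivator of nuclear receptors that recruits p300/CBP. It was read at 71.5, 76.3 and 70.3 CPM with DMSO, 65.3, 61.7 and 69.3 CPM with MS172, and 77.0, 77.8 and 70.6 CPM with PK9328. The MS172 libraries lay below all others. NCOA3 fell with MS172 by 0.15 on the log2 scale (SE 0.05, edgeR adjusted p = 0.018), and was not called with PK9328 (log2 fold change 0.05, 95% interval -0.05 to 0.15, adjusted p = 0.59). The fall was lost without DMSO replicate 2 (-0.12), MS172 replicate 1 (-0.15) or MS172 replicate 2 (-0.11), with length-scaled TPM (-0.18) and with the length and GC offset (-0.10), and adjusted p over 20 alternatives ran from 0.000605 to 0.131.

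The 2 compounds were also compared with each other, with the caveat on the dose and time of MS172 given above. This comparison shares its libraries with the 2 against DMSO and is no independent evidence. In MS172 relative to PK9328, CREBBP, KAT2B, KAT5, KAT6B, KAT7 and NCOA3 were lower and KAT2A and KAT8 were higher, 8 of 10 members beside 47.7% of all genes tested (23.3% higher and 24.4% lower). The 8 did not overlap between the groups, as 55.4% of all genes did not. KAT2B differed most, by -0.53 ± 0.12 (log2 fold change ± SE, edgeR adjusted p = 0.00052), followed by KAT8 (0.28 ± 0.07, adjusted p = 0.0014), CREBBP (-0.25 ± 0.06, adjusted p = 0.00037) and KAT7 (-0.24 ± 0.05, adjusted p = 0.00028). KAT5 was lower by -0.22 (adjusted p = 0.012), NCOA3 by -0.20 (adjusted p = 0.0015) and KAT6B by -0.14 (adjusted p = 0.033), and KAT2A was higher by 0.13 (adjusted p = 0.023). EP300 (0.07, 95% interval -0.05 to 0.19) and KAT6A (-0.07, -0.18 to 0.04) were not called. KAT2B, KAT7 and NCOA3 were called under all 20 alternatives. The fragment lengths of these groups do not overlap, and with fragment length as a covariate the calls of CREBBP (-0.29), KAT2A (0.06), KAT5 (-0.12) and KAT6B (-0.16) were lost, which left 4 of 10. Without PK9328 replicate 1, KAT2A (0.09), KAT5 (-0.19) and KAT6B (-0.12) were lost, which left 5. KAT2A was lost under 6 of 20 alternatives, the others being the fits without MS172 replicate 3 (0.10), with length-scaled TPM (0.13), with the length and GC offset (0.084) and without normalisation factors, where its sign turned (-0.0098). KAT6B was lost under 8, the others being RLE size factors (-0.13), DESeq2 (-0.13), length-scaled TPM (-0.10), the offset (-0.087), and the fits without MS172 replicate 2 (-0.10) or PK9328 replicate 2 (-0.14). KAT8 was lost without normalisation factors (0.14, adjusted p = 0.0996). Over 20 alternatives, adjusted p ran from 4.44e-06 to 0.0796 for CREBBP, from 0.0112 to 0.888 for KAT2A, from 0.000108 to 0.614 for KAT5 and from 0.000236 to 0.38 for KAT6B.

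The deposited tables also estimate each transcript of a gene. EP300 has 1 transcript in them, EP300-201, whereas CREBBP has 12, KAT5 has 17 and KAT6B has 7. Transcripts with at least 10% of their gene's TPM in any library numbered 21 over the 10 genes. Overlapping transcripts share reads and the shares of a gene's transcripts depend on each other, so the shares are given as values with no test. Between MS172 and DMSO, 9 of the 21 shares did not overlap (5 higher, 4 lower), beside 14.5% of 38669 transcript shares picked in the same way over all genes tested. That wider set was not matched to the members for reads or number of transcripts. It also holds genes with 1 transcript, as EP300 has, whose share cannot move. Between PK9328 and DMSO, 5 of 21 did not overlap, beside 11.3%, and between MS172 and PK9328, 10 of 21 did not, beside 19.8%. By share of reads in place of TPM, KAT8-201 overlapped and NCOA3-203 did not between MS172 and DMSO, KAT2A-201 overlapped between PK9328 and DMSO, and KAT7-202 between MS172 and PK9328.

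Most CREBBP was assigned to CREBBP-201 and CREBBP-202. The second lacks exon 5 of the first, which spans chr16:3791981-3792094 on the minus strand, is coding, and has 114 bases or 38 codons. It also ends in a shorter 3′ UTR of 179 bases in place of 2664. On which of these differences a shift in the estimated shares rests was not tested. Exon 5 belongs to the part of CBP that holds its first zinc-binding transcription factor domain. The sequences show the exon in capitals between 20 bases of its neighbours, 5′ to 3′ on the transcript, from GENCODE 29 on GRCh38, and are given because this junction is where the coding sequences of the 2 transcripts part.
CREBBP-201: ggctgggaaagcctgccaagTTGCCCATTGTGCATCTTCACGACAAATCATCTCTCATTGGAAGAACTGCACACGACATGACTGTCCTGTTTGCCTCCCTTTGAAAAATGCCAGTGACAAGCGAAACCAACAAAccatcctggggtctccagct
CREBBP-202: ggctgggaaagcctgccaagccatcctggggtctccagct

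CREBBP-202 held 50.3, 33.6 and 33.5% of CREBBP TPM with DMSO, 19.4, 18.3 and 16.5% with MS172, and 39.3, 56.5 and 53.4% with PK9328. All MS172 libraries were below all others, and PK9328 overlapped DMSO. The mean share was 39.1 ± 9.65% with DMSO and 18.0 ± 1.47% with MS172, a difference of -21.1 percentage points. CREBBP-201 moved the other way, from 46.2, 63.5 and 66.5% with DMSO to 73.8, 81.7 and 69.2% with MS172. In TPM, CREBBP-202 stood at 3.10, 2.06 and 1.68 with DMSO and 0.972, 0.762 and 0.893 with MS172, while CREBBP-201 stood at 2.85, 3.89 and 3.33 and at 3.70, 3.41 and 3.75. The CPM of the whole gene overlapped between these groups, as given above, while its estimated transcript shares did not.

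KAT5 also has a coding exon 5 that transcripts include or skip, chr11:65713348-65713503 on the plus strand, with 156 bases or 52 codons. It is present in KAT5-203 and absent in KAT5-202, the form known as TIP60 beta. KAT5-208 lacks it too and keeps 99 coding bases of an upstream intron of the others (chr11:65712280-65712378). The exon is shown in capitals between 20 bases of its neighbours, from the same source, because it separates KAT5-203 from the other 3 KAT5 transcripts described.
KAT5-203: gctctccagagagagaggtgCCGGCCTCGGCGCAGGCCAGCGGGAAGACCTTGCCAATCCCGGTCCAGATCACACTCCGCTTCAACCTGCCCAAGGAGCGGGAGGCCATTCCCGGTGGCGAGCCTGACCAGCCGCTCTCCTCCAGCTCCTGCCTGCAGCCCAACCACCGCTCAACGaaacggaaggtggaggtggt
KAT5-202: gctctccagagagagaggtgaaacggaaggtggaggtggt

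KAT5-208 held the largest share, 43.0, 43.3 and 50.1% with DMSO, 52.0, 57.6 and 52.8% with MS172, and 53.8, 54.0 and 53.5% with PK9328, so both treated groups lay above DMSO. KAT5-202 held 33.1, 34.1 and 24.5% with DMSO, 17.0, 10.8 and 18.7% with MS172, and 21.9, 18.9 and 17.4% with PK9328, below DMSO in both. KAT5-203, the form with exon 5, held 13.2 to 15.8% with DMSO, 11.1 to 21.3% with MS172 and 11.9 to 23.8% with PK9328, with overlap throughout. The shorter KAT5-216, which starts at 65712620, held 4.26 to 5.52% with DMSO, 8.54 to 15.5% with MS172 and 0.91 to 2.86% with PK9328, with no overlap among the 3 groups. The overlap with RNASEH2C named above touches these shares as well.

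KAT6B had the largest difference in a share. KAT6B-205 held 34.2, 35.3 and 31.5% of its TPM with DMSO and 61.7, 59.4 and 58.8% with MS172, a difference of 26.3 percentage points. With PK9328 it held 31.8 and 40.6% in replicates 1 and 3 and was listed at 0 in replicate 2. KAT6B-204 held 20.7, 17.0 and 12.2% with DMSO, was listed at 0 in all 3 MS172 libraries, and held 19.97, 45.7 and 15.7% with PK9328. Compared with KAT6B-205, KAT6B-204 carries 327 further coding bases (chr10:74975455-74975781) and starts at 74826449 in place of 74825499. KAT6B-201 and KAT6B-202 carry these 327 bases too. With MS172 they held 28.1, 19.7 and 26.4% (KAT6B-201) and 8.98, 17.4 and 14.8% (KAT6B-202), each overlapping DMSO. In PK9328 replicate 2, the library with KAT6B-205 at 0, KAT6B-204 was highest. Whether a listed 0 is a failed estimate was not tested.

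In the remaining genes the shares moved less. KAT8-201 held 88.6, 90.2 and 92.6% of KAT8 with DMSO, 95.01, 93.2 and 92.9% with MS172 and 88.3, 87.2 and 84.3% with PK9328, with no overlap among groups. By share of reads the MS172 (93.2 to 95.6%) and DMSO (89.5 to 93.97%) libraries overlapped. NCOA3-202, which ends in a shorter 3′ UTR than NCOA3-203, held 8.10 to 9.56% with DMSO and 2.63 to 6.86% with MS172. KAT2A-201 held 95.5 to 99.1% of KAT2A in every library. The main transcripts of KAT2B, KAT6A, KAT7 and NCOA3 overlapped between each compound and DMSO.

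**Figure D4:**
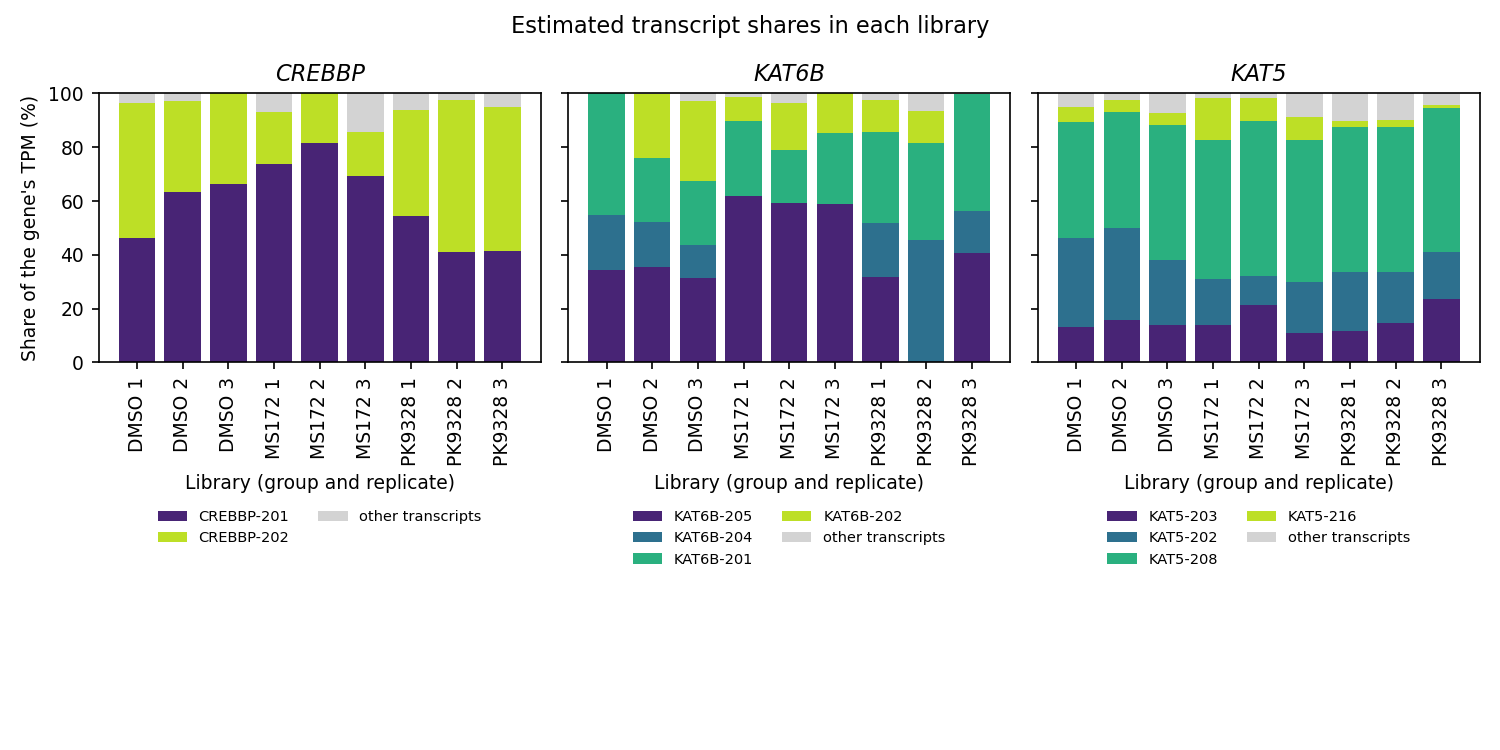
Share of the TPM of CREBBP, KAT6B and KAT5 held by each transcript (percent, stacked bars) in the 9 libraries, with all further transcripts in grey. CREBBP-202 is at most 19.4% in the MS172 libraries, and KAT6B-204 is listed at 0 there.

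The enzymes act with partner subunits, and 7 lists of such genes were examined beside them. Of 18 tested SAGA and ATAC genes, 7 fell and 1 rose with MS172, beside 35.1% of all genes called, and 3 rose with PK9328, beside 15.5%. The 3 rises became 0 without DMSO replicate 1, DMSO replicate 3, PK9328 replicate 1 or PK9328 replicate 2, with length-scaled TPM and with the covariate, and 1 with DESeq2 or without PK9328 replicate 3. The rise with MS172 was lost without DMSO replicate 2. The largest falls among the genes named by rule were in the adaptor TADA2A (-0.77 ± 0.13, log2 fold change ± SE), the ATAC subunit ZZZ3 (-0.40 ± 0.06) and the acetyl-lysine reader YEATS2 (-0.40 ± 0.04), with edgeR adjusted p of 2.4e-05, 4.2e-06 and 3.1e-08. TADA2A went from 9.07, 8.74 and 7.01 CPM with DMSO to 5.79, 4.75 and 4.05 CPM with MS172. The median of the list was -0.06 with MS172, which became -0.017 without DMSO replicate 2 and -0.090 without DMSO replicate 3, and 0.06 with PK9328.

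Of 16 genes of the KAT5 complex, 5 fell and 3 rose with MS172 (35.1% of all genes called), and 2 rose and 1 fell with PK9328 (15.5%). The fall count with PK9328 was 0 without DMSO replicate 1 and 2 without DMSO replicate 2 or PK9328 replicate 2. ING3, a reader of methylated histone H3, was at 5.77, 5.62 and 5.01 CPM with DMSO, 3.26, 3.42 and 2.34 CPM with MS172 and 8.48, 7.38 and 8.08 CPM with PK9328, so the 3 groups did not overlap. It fell by 0.87 on the log2 scale with MS172 (SE 0.14, adjusted p = 2.6e-05) and rose by 0.54 with PK9328 (SE 0.13, adjusted p = 0.0033). The scaffold EPC1 was at 25.2, 24.7 and 24.4 CPM with DMSO, 15.3, 14.7 and 14.4 CPM with MS172, and 30.8, 29.5 and 28.7 CPM with PK9328. EPC1 fell by 0.74 with MS172 (SE 0.07, adjusted p = 3.8e-10) and rose by 0.26 with PK9328 (SE 0.06, adjusted p = 0.003). Both rises with PK9328 were lost with fragment length as a covariate (ING3 0.44, EPC1 0.27) and with length-scaled TPM (ING3 0.47, EPC1 0.30), whereas both falls with MS172 held under all 20 alternatives. The ATPase RUVBL2 rose by 0.16 with MS172 and fell by 0.15 with PK9328, of which the second was lost without DMSO replicate 1 (-0.12). EP400, the ATPase that gives the complex its remodelling activity, was not called (-0.11 with MS172, adjusted p = 0.064). It was called lower with MS172 without DMSO replicate 3 (-0.15).

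Of 11 genes of the MSL and NSL complexes of KAT8, 4 fell with MS172, where 17.2% of all genes fell, and 2 did without MS172 replicate 1. Among the 4 were OGT, the enzyme that adds N-acetylglucosamine to proteins (-0.44 ± 0.05, adjusted p = 1.8e-07), KANSL3 (-0.25 ± 0.06, adjusted p = 0.0014) and KANSL1 (-0.21 ± 0.06, adjusted p = 0.0073). The KANSL1 call was lost without MS172 replicate 1 (-0.16). With PK9328, where 15.5% of all genes were called, OGT fell by 0.29 (adjusted p = 0.00026) and KANSL3 rose by 0.19 (adjusted p = 0.022). The latter was lost without DMSO replicate 1 (0.19) or 3 (0.14) and without PK9328 replicate 1 (0.18), 2 (0.19) or 3 (0.19). Of 9 genes of the KAT6A, KAT6B and KAT7 complexes, 1 rose and 1 fell with MS172, beside 35.1% of all genes called. None was called with PK9328, where 1 was higher at most in the alternatives. The fall with MS172 was lost without DMSO replicate 2, MS172 replicate 1 or MS172 replicate 2. The counts with MS172 were 2 rises without MS172 replicate 2 and 2 falls without MS172 replicate 3. The rise with MS172 was in the shared subunit MEAF6 (0.18 ± 0.05, edgeR adjusted p = 0.0033).

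Of 17 partners of p300/CBP and NCOA3, 4 fell and 2 rose with MS172, and 3 rose and 1 fell with PK9328. Over all genes, 35.1% and 15.5% were called. The 4 falls became 2 without DMSO replicate 2 or MS172 replicate 3 and with DESeq2, and the 2 rises became 1 without MS172 replicate 2. With PK9328, the 3 rises became 1 without PK9328 replicate 2, and the fall count was 0 without DMSO replicate 1 and 2 without DMSO replicate 3 or MS172 replicate 1. The NCOA3 paralogue NCOA2 fell with MS172 (-0.33 ± 0.09, adjusted p = 0.0041), as did the p300 cofactor JMY (-0.21 ± 0.07, adjusted p = 0.02). NCOA1, the third member of that family, was not called (-0.08, adjusted p = 0.35). EID1, known as an inhibitor of p300/CBP acetylation, rose (0.22 ± 0.04, adjusted p = 0.00017). The arginine methyltransferase CARM1, which acts with p300/CBP and NCOA proteins, rose with MS172 (0.12, adjusted p = 0.011) and fell with PK9328 (-0.14, adjusted p = 0.0094). The JMY call was lost without DMSO replicate 2 (-0.13), MS172 replicate 2 (-0.21) or MS172 replicate 3 (-0.20). The CARM1 calls were lost without MS172 replicate 2 (0.10) and, for PK9328, without DMSO replicate 1 (-0.11).

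Of 13 other acetyltransferase genes, 4 fell and 2 rose with MS172, beside 35.1% of all genes called, and 2 rose with PK9328, a share close to the 15.5% of all genes. The rises with MS172 became 1 without MS172 replicate 2, and without DMSO replicate 2 the PK9328 counts were 4 rises and 1 fall. The tubulin acetyltransferase ATAT1 fell with MS172 (-0.48 ± 0.11, adjusted p = 0.00092). ESCO1, which acetylates cohesin, rose with PK9328 (0.39 ± 0.06, adjusted p = 1.6e-05), as did the N-terminal acetyltransferase NAA60 (0.28 ± 0.05, adjusted p = 0.00022), and both of these calls were lost with fragment length as a covariate (0.29 and 0.33).

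Of 14 tested genes of the supply of acetyl-CoA, 6 rose and 1 fell with MS172, where 17.9% of all genes rose and 17.2% fell. The rises numbered 4 without DMSO replicate 2, DMSO replicate 3, MS172 replicate 2 or MS172 replicate 3. The list had a median of 0.07 that turned to -0.03 when library totals were used without normalisation factors, where the counts were 2 and 2. The pyruvate dehydrogenase kinase PDK2 (0.35 ± 0.07, adjusted p = 0.00051), the citrate carrier SLC25A1 (0.21 ± 0.04, adjusted p = 3.2e-05) and the acetyl-CoA synthetase ACSS2 (0.16 ± 0.05, adjusted p = 0.014) were among the genes that rose. The list does not separate genes that add to the supply from genes that limit it, so its counts and median give no direction of supply. The ACSS2 call was lost without DMSO replicate 2 (0.13) or MS172 replicate 2 (0.14). With PK9328, 1 of the 14 genes rose and none fell, beside 15.5% of all genes called. Without DMSO replicate 2, 2 of them fell, and without PK9328 replicate 3, 1 did.

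Several of these partner calls depended on the scaling. With counts rebuilt from length-scaled TPM, the MS172 calls of MEAF6 (0.025), KANSL1 (-0.056), EID1 (0.043), CARM1 (0.12), JMY (-0.20) and NCOA2 (-0.38) were lost, and so were the PK9328 calls of OGT (-0.19), KANSL3 (0.20) and CARM1 (-0.12). Without normalisation factors, those of RUVBL2 (0.058), MEAF6 (0.072), ACSS2 (0.051) and CARM1 (0.014) with MS172 and of CARM1 with PK9328 (-0.11) were lost, and EP400 (-0.22) and NCOA1 (-0.19) were called lower, and with MS172 the falls numbered 9 for the SAGA and ATAC list, 9 for the KAT5 complex, 4 for the KAT6A, KAT6B and KAT7 complexes, 7 for the p300/CBP and NCOA3 partners and 6 for the other acetyltransferases, with 0 rises in these lists but for 1 among the partners. With fragment length as a covariate, the PK9328 calls of RUVBL2 (-0.13), OGT (-0.17), KANSL3 (0.033) and CARM1 (-0.025) were lost. The MS172 calls of TADA2A, ZZZ3, YEATS2, ING3, EPC1, OGT, KANSL3, ATAT1, PDK2 and SLC25A1 held under all 20 alternatives.

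**Figure D5:**
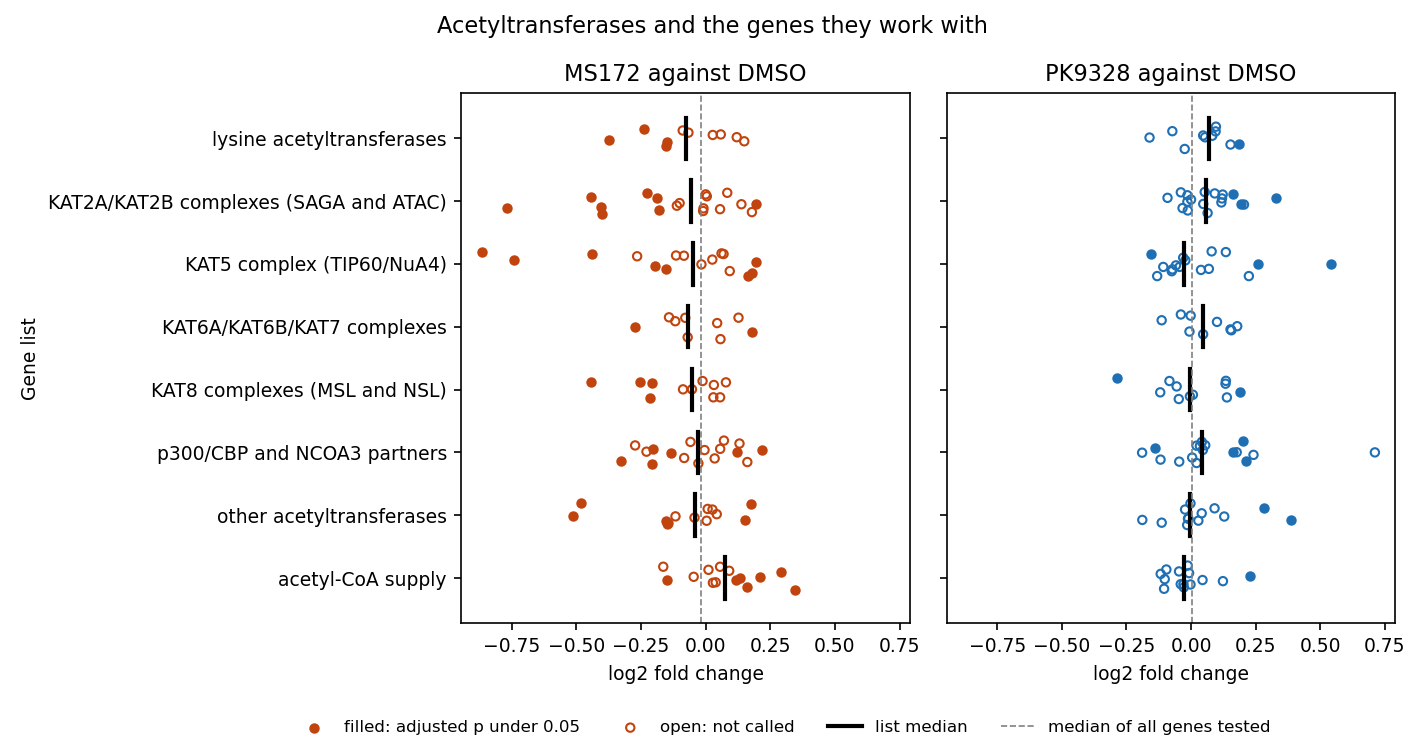
Log2 fold change of every tested gene of the acetyltransferase list and of the 7 partner lists, for each compound against DMSO; filled points have an adjusted p under 0.05 and the black bar is the list median. The acetyl-CoA list has a median of 0.07 with MS172, and the other 7 medians there lie between -0.08 and -0.03.

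The pattern over the 9 libraries was also compared gene by gene, as the mean absolute difference of log2 CPM after centring each of 11329 coding genes on its own mean. The genes nearest to EP300 were SEMA3D (0.02), ARHGAP5 (0.03) and C6orf62 (0.04), and those nearest to CREBBP were CD2AP (0.03), C17orf75 (0.03) and TRUB1 (0.03). Of the other members, KAT6A (rank 136) and KAT2A (rank 284) came nearest to EP300, and CREBBP came at rank 5239. KAT6B (rank 127), NCOA3 (rank 287) and KAT6A (rank 404) came nearest to CREBBP, with EP300 at rank 3701. By this measure KAT6A, KAT2A and KAT6B (rank 3046) were closer to EP300 than CREBBP was. The remaining members were farther, from NCOA3 (rank 5797) to KAT2B (rank 9978). KAT6B, NCOA3, KAT6A, KAT7 (rank 1261) and KAT5 (rank 2604) were closer to CREBBP than EP300 was. KAT2A (rank 5221), KAT2B (rank 7217) and KAT8 (rank 8702) were farther. Genes that change little lie near one another by this measure, and whether near ranks reflect shared regulation was not tested.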

How the data were processed

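The 9 poly(A) RNA libraries, 3 each with DMSO, MS172 and PK9328, were grouped by their titles. Each deposited table lists, per the file headers, a length, an effective length, a TPM value and an estimated count of reads for 197653 transcripts. The authors' TPM values add up to 1000000 in a library and allow for transcript length, per the file headers. FastQC 0.11.8 and hg38 are named in the submitters' processing notes. Which program and index quantified the reads is not given in the sources used here.

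Identifiers of 193348 of these transcripts were found in GENCODE 29, and the rest, with 0.356 to 0.382% of reads, were left out. Estimated counts were summed for 56865 genes and rounded. The main test was the robust quasi-likelihood test of edgeR 4.0.16 (R 4.3.3) with TMM and filterByExpr. It used 1 fit of all 9 libraries with 6 residual degrees of freedom and no replicate term. Its code was also run on simulated counts with the same spread for every gene. That run does not show how well small changes are found in these libraries. The main test covered 13914 genes, with Benjamini-Hochberg adjustment over all of them, a threshold of 0.05 and a common biological coefficient of variation of 0.044. Each SE is the log2 fold change divided by the root of F, and it gives the 95% interval. CPM values are means ± SD of 3 libraries. Fragment length was taken from the gap between length and effective length in transcripts of 3000 bases or more.

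The members and gene lists were chosen with earlier results of these data known, and the lists are not independent evidence. Named genes were the members; up to 3 genes of each partner list with the smallest p over the 3 comparisons; NCOA1, NCOA2, EP400 and ACSS2; and the 3 coding genes nearest in profile to EP300 and CREBBP. ATXN7, with 2 identifiers, and PDK4, under the filter, were not tested. Of the genes named from the partner lists, ING4, JADE3, CRAT, EP400 and NCOA1 were called neither with MS172 nor with PK9328 against DMSO. In MS172 against PK9328, ING4 (-0.29, edgeR adjusted p = 0.00096) and JADE3 (-0.27, adjusted p = 0.00028) were lower and CRAT (0.19, adjusted p = 0.00013) was higher.

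The 20 alternatives were RLE size factors; DESeq2 1.42.0, with its own size factors; limma-voom (limma 3.58.1); no filter; at least 1 CPM in 3 libraries; a replicate block; counts from length-scaled TPM; a covariate for fragment length; an offset for trends with length and GC content in each library (mgcv 1.9.3); a fit of the 6 libraries compared; each library left out; and library totals without normalisation factors. The last, and ratios of CPM, were chosen after seeing the data.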

Additional observations from a re-analysis of the deposited data

How the results depend on the processing

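The count of acetyltransferase genes called with MS172 against DMSO (4) was 1 with length-scaled TPM, 6 (all lower) without normalisation factors and 1 to 5 with a library left out, with 2 without DMSO replicate 1 and 1 without MS172 replicate 1. With PK9328 against DMSO (1) it was 0 with length-scaled TPM, 0 with fragment length as a covariate and 3 with the length and GC offset, and 0 to 1 with a library left out. For MS172 against PK9328 (8) it was 4 with the covariate and 5 to 8 with a library left out. Over all genes, the 2151 calls of PK9328 against DMSO became 1065 with length-scaled TPM, 175 with the covariate and 1384 to 2215 with a library left out, with 1384 without DMSO replicate 1 and 1400 without PK9328 replicate 2. The 6641 calls of MS172 against PK9328 became 2474 with the covariate and 5651 to 6770 with a library left out, and the 4884 of MS172 against DMSO 3874 to 4897. The causes were not tested.

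Without normalisation factors the median of all genes shifted to -0.13 for MS172 against DMSO, -0.17 for MS172 against PK9328 and 0.04 for PK9328 against DMSO, and the share of calls that were higher to 17.97%, 18.47% and 70.9%, from 50.9%, 48.79% and 51.6%. Log2 fold changes turned there for KAT2A (-0.049 against DMSO and -0.0098 against PK9328 in MS172), KAT6A (-0.080 with MS172), EP300 (-0.074 against PK9328), KAT5 (0.00907 with PK9328), EP400 (0.011 with PK9328) and ACSS2 (0.0042 with PK9328). With fragment length as a covariate, EP300 turned to -0.087 in MS172 against PK9328, and with PK9328 EP400 turned to 0.079, NCOA2 to -0.16 and ZZZ3, otherwise called higher (0.16) but in only 5 of 20 alternatives, to -0.034. With length-scaled TPM, KAT5 turned to 0.032 and ACSS2 to 0.047 with PK9328. With a library left out, KAT6A ran from -0.023 (without DMSO replicate 3) to 0.068 with MS172. With PK9328, KAT5 then ran from -0.090 to 0.023 (above 0 without DMSO replicate 1 or PK9328 replicate 2), EP400 from -0.062 to 0.012 (without DMSO replicate 1 or PK9328 replicate 3) and ACSS2 from -0.054 to 0.0026 (without DMSO replicate 3). The directions of the paralogue ratios and of the 9 transcript shares held under their alternatives, while KAT8-201 then overlapped between MS172 and DMSO. The order of levels was the same by CPM per kilobase of effective length. That length is itself weighted by TPM, so the order could hardly change and the check gives no support.

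Replicate numbers did not pair the libraries: deviations of same-numbered libraries from their group means correlated between -0.0569 and 0.0174. With the replicate block, 4597, 1884 and 6405 genes and 5, 1 and 8 members were called in the 3 comparisons, the fifth member with MS172 being EP300. Depth limits KAT2B most, with 149 to 293 reads per library.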
